A study of Homo sapiens with 40 samples.

Results

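Genes that build the junctions between epithelial cells were followed across single cells of T47D, an established human breast cancer line of luminal epithelial character, sequenced with G&T, Takara and NEB. The 10 genes were taken from a list of symbols (CDH1, CTNNB1, CTNND1, CLDN3, CLDN4, CLDN7, OCLN, TJP1, DSP and JUP), and all 10 were found by Ensembl identifier among the 60279 genes of the count tables. All cells were of passage 10, with no treatment described, and were sorted as single live cells positive for EpCAM and integrin α6. Every group thus shares the line, the passage and the gate, while the number of cultures is not given. G&T is the transcriptome arm of genome and transcriptome sequencing, in which mRNA is first separated from genomic DNA, Takara is the SMART-seq HT kit, and NEB is the NEBNext Single Cell/Low Input kit. After quality control 33 of 40 deposited cells were used, 11 for each protocol.

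Epithelial cells are joined by several kinds of junction. In adherens junctions E-cadherin (CDH1) binds its counterpart on the neighbouring cell, while p120-catenin (CTNND1) and β-catenin (CTNNB1) bind its cytoplasmic tail, and β-catenin is also the transcriptional effector of Wnt signalling. Tight junctions seal the space between cells with claudins and occludin (OCLN), which are tied to the actin cytoskeleton by ZO-1 (TJP1). Desmosomes anchor keratin filaments through plakoglobin (JUP), a close relative of β-catenin, and desmoplakin (DSP). Luminal epithelial cells of the breast are joined by all of these structures.

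NEB differed from G&T and Takara in which junction genes had reads. In G&T and Takara, 109 of 110 gene and cell combinations held at least 1 read, against 76 of 110 in NEB. Over all genes, too, fewer were detected in an NEB cell, 4416 to 6719, against 9541 to 12794 in G&T and 10624 to 11855 in Takara. A lower count in NEB was thus not particular to the junction genes. A G&T cell held 9.91 ± 0.302 of the 10 genes (SD, n = 11 cells), a Takara cell 9.91 ± 0.302, and an NEB cell 6.91 ± 1.45, with a lowest, median and highest of 5, 7 and 9. All 10 genes were seen together in 10 cells each of G&T and Takara and in 0 NEB cells. The genes missing from NEB cells were for the most part CLDN3, CLDN4, CLDN7 and JUP, whose transcripts are rich in G and C, while CDH1, CTNNB1 and DSP had reads in every NEB cell.

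Each protocol had 1 set of wells and 1 sequencing run, so that a protocol counts as 1 sample, its cells do not replicate it, and no test between protocols was made. Means and SDs describe the cells of 1 run, and intervals cover counting error only, since reads were counted without molecular identifiers. Protocol, plate, run, number of PCR cycles (more in NEB) and final library chemistry cannot be told apart. Library sizes of the cells used, as reads on genes and ERCC spike-ins, overlapped between protocols, from 672328 to 1192383 in G&T, 827663 to 1297218 in Takara and 720899 to 1021613 in NEB. ERCC reads made up 1.37% to 2.75%, 0.538% to 1.33% and 5.66% to 18.9% of them, and genes detected ran from 9541 to 12794, 10624 to 11855 and 4416 to 6719. The luminal character of the cells was seen in all protocols, with all 8 markers of the line (EPCAM, KRT8, KRT18, KRT19, ESR1, PGR, GATA3 and FOXA1) at 1 CPM (reads per 1000000 reads on genes) or more. Markers of other cells were low, with exceptions among the basal markers. The 7 fibroblast markers summed to 13.1 CPM with G&T, 12.7 with Takara and 13.2 with NEB, and cells spanned 0 to 50 CPM. The 6 endothelial markers summed to 3.47, 0 and 0.125 CPM, the 5 immune markers to 4.53, 8.96 and 4.51 CPM, and the 5 basal markers to 3.47, 33.1 and 18.1 CPM. Single cells reached 16.5, 146 and 126 CPM on the basal markers, through ACTA2 in Takara (30.9 CPM pooled, with reads in all 11 cells) and VIM in NEB (18.1 CPM, in 3 cells), while the basal keratins KRT5 and KRT14 had 1 and 2 reads in G&T and none in Takara and NEB. The part of these markers in the results was not tested. CDH5, CD3E, LUM and THY1 had no read in any protocol. Some cells stood apart in the junction genes. G&T cell E2 had 665 CPM on the 10 genes together, against a G&T median of 2250.2, G&T cell H1 had the lowest CTNNB1 value of that protocol, and Takara cell E2 had the lowest CLDN4 and OCLN values of Takara.

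The base composition of the transcripts differed widely, and is shown here because the values below divided along it. The stretches printed are coding sequence of the reference, GRCh38 with GENCODE release 44, 5′ to 3′ on the strand of the gene, with G and C in capitals. Each is the 75 bases within a coding exon whose GC content came closest to that of the whole canonical transcript, so it stands for the transcript by construction. The 4 genes with a transcript GC of 56.0% to 69.2% were these.
CLDN3 (chr7:73769941-73770015, minus strand, 69.3% GC): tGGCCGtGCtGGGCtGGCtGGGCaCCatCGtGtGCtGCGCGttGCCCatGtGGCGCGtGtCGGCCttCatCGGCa
JUP (chr17:41771748-41771822, minus strand, 61.3% GC): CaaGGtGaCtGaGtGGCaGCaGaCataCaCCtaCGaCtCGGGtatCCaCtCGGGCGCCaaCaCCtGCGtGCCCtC
CLDN4 (chr7:73831281-73831355, plus strand, 61.3% GC): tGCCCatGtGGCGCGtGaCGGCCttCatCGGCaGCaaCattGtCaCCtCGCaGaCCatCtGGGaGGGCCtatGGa
CLDN7 (chr17:7261839-7261913, minus strand, 56% GC): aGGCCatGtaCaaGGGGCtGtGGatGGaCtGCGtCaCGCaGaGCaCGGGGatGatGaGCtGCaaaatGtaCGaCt
The other 6 genes had a transcript GC of 38.8% to 48.2%.
CDH1 (chr16:68801670-68801744, plus strand, 48% GC): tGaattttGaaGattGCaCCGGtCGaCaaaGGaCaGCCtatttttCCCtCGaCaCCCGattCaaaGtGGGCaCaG
DSP (chr6:7558134-7558208, plus strand, 48% GC): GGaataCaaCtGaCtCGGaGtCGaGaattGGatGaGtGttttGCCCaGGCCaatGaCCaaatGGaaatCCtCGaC
CTNND1 (chr11:57796506-57796580, plus strand, 46.7% GC): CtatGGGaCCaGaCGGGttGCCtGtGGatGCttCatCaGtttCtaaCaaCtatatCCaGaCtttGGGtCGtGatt
TJP1 (chr15:29773252-29773326, minus strand, 45.3% GC): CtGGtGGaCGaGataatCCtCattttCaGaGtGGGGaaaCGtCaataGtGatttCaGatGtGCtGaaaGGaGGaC
CTNNB1 (chr3:41225059-41225133, plus strand, 44% GC): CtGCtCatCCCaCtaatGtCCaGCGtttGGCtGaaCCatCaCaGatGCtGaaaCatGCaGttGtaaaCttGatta
OCLN (chr5:69509527-69509601, plus strand, 38.7% GC): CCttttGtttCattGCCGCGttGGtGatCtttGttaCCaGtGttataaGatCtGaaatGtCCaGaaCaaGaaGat
No gene of the 10 lay between 48.2% and 56.0%, so that a boundary of 55%, set after the values were seen, divides them without a close case. The GC-rich genes were also the shorter ones, with canonical transcripts of 1.27 kb (CLDN3), 1.70 kb (CLDN4), 1.54 kb (CLDN7) and 3.50 kb (JUP), against 3.66 to 9.70 kb for the other 6. GC content and length therefore cannot be told apart within the 10 genes. The difference in composition was largest at the third base of the codon. The third positions of the coding sequence were 95% GC in CLDN3, 87.1% in CLDN4, 84.2% in JUP and 74.4% in CLDN7, and from 34.7% (TJP1) to 58.6% (DSP) in the other 6.

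JUP and CTNNB1 encode related proteins, and their base composition is set side by side here as a description. The pair does not isolate base composition, since levels in Takara also differed, at 706 and 105 CPM. First and second codon positions had nearly equal GC content, 62.3% and 40.4% in JUP and 62.5% and 40.6% in CTNNB1, while the third positions had 84.2% and 41.1%.

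CDH1, the adhesive receptor of the adherens junction (ENSG00000039068; chromosome 16, 68737292 to 68835537, plus strand, 16 exons), had reads in all 33 cells. Its lowest, median and highest cell had 51.3, 219.9 and 398 CPM in G&T, 107, 175 and 252 CPM in Takara, and 245, 455 and 797 CPM in NEB. The NEB cells were thus the highest on the whole, although the ranges met. Pooled over cells, CDH1 had 222 CPM in G&T (95% exact Poisson interval 213 to 232), 176 in Takara (168 to 183) and 481 in NEB (466 to 496). The mean of NEB cells, 486 ± 185 CPM (SD, n = 11 cells), exceeded those of G&T (225 ± 94.1) and Takara (172 ± 44.4) by more than the larger SD, and the pooled level was 2.74-fold that of Takara (2.59 to 2.89) and 2.16-fold that of G&T (2.05 to 2.28). The log2 ratio of NEB over G&T was 1.11, and 0.99 without G&T cell E2.

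CTNNB1 (ENSG00000168036; chromosome 3, 41194741 to 41260096, plus strand, 15 exons) also had reads in all 33 cells. Its lowest, median and highest cell had 14.5, 192 and 228 CPM in G&T, 21.7, 110.2 and 171 CPM in Takara, and 117, 272 and 464 CPM in NEB. All groups overlapped, and the G&T range was widened by cells H1 and E2 with 14 and 20 reads. The pooled level was 145 CPM in G&T (138 to 153), 105 in Takara (98.9 to 111) and 265 in NEB (253 to 276), which put NEB 2.53-fold above Takara (2.36 to 2.72), a gap between cell means of 154 CPM at a larger SD of 109. NEB stood 1.82-fold above G&T (1.70 to 1.95), within the larger SD of cells.

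CTNND1, whose product holds E-cadherin at the membrane (ENSG00000198561; chromosome 11, 57753243 to 57819546, plus strand, 21 exons), was the member that G&T captured best in relation to the other protocols. The lowest, median and highest cell had 67.4, 307 and 519 CPM in G&T, 36.7, 102 and 157 CPM in Takara, and 0, 61.7 and 282 CPM in NEB. The ranges overlapped, with 10 of 11 NEB cells holding reads and cell E2 holding 35.7% of all NEB reads on the gene. Pooled CTNND1 was 271 CPM in G&T (260.2 to 281), 98.0 in Takara (92.4 to 104) and 75.1 in NEB (69.2 to 81.4). G&T was 2.76-fold above Takara (2.57 to 2.96) and 3.60-fold above NEB (3.29 to 3.94), with gaps between cell means larger than the SD over cells, while NEB and Takara differed by less than that SD. Of the exon bases of its canonical transcript, 78.6% are shared with an overlapping coding gene of the same strand that is not among the genes of the count tables. Another coding gene on that strand (ENSG00000254732), which shares 28.9%, is among them and had 14 reads with G&T, 1 with Takara and 0 with NEB.

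The 3 claudins of the list, which form the paracellular seal, were lower in NEB than in both other protocols. CLDN3 (ENSG00000165215; chromosome 7, 73768997 to 73770270, minus strand, 1 exon) had lowest, median and highest values of 94.4, 192 and 329 CPM in G&T, 456, 613 and 747 CPM in Takara, and 0, 0 and 22.8 CPM in NEB. The ranges of the protocols did not touch for any pair. It was detected in all G&T and Takara cells and in 5 NEB cells (45.5%, exact binomial interval 16.7% to 76.6%), with 2085, 7269 and 52 reads in all. The pooled level was 219 CPM in G&T (210.1 to 229), 620.4 in Takara (606 to 635) and 6.52 in NEB (4.87 to 8.55), so that NEB was 95.1-fold below Takara (72.5 to 128) and 33.7-fold below G&T (25.6 to 45.2). CLDN3 also separated Takara from G&T, by 2.83-fold (2.69 to 2.97).

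CLDN4 (ENSG00000189143; chromosome 7, 73799542 to 73832690, plus strand, 1 exon in the canonical transcript) was the most abundant of the 10 genes in Takara and G&T. Its lowest, median and highest cell had 87.4, 397 and 649 CPM in G&T, 319, 1012 and 1992 CPM in Takara, and 0, 1.04 and 208 CPM in NEB. All NEB cells lay below all Takara cells, and a single NEB cell, G2, overlapped with G&T. That cell held 130 of the 149 NEB reads, and 6 NEB cells had any (54.5%, 23.4% to 83.3%). Pooled values were 346 CPM in G&T (334 to 358), 1151 in Takara (1132 to 1171) and 18.7 in NEB (15.8 to 21.9), with NEB 61.6-fold below Takara (52.4 to 72.9) and 18.5-fold below G&T (15.7 to 22.0). On the scale of log2(CPM + 1), NEB over Takara was -5.87, and -8.33 without cell G2, and NEB over G&T was -4.14, and -6.60 without it.

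CLDN7 (ENSG00000181885; chromosome 17, 7259903 to 7263983, minus strand, 4 exons) had 52.3, 102 and 181 CPM in the lowest, median and highest G&T cell, 94.5, 175 and 343 CPM in Takara, and 0, 0 and 52.0 CPM in NEB. All 34 NEB reads came from cell C1, and the other 10 NEB cells had none, so that it was detected in 9.09% of NEB cells (0.23% to 41.3%). Pooled values were 117 CPM in G&T (110.1 to 124), 199.9 in Takara (192 to 208) and 4.26 in NEB (2.95 to 5.96). The log2 ratio of NEB over Takara was -5.25, and -7.65 without cell C1, and over G&T it was -4.48, and -6.88 without that cell. The exons of CLDN7 share 2.46% of their bases with the antisense neighbour ELP5 and 17.4% with another coding gene on the same strand, which had 0 reads in all protocols.

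OCLN and TJP1, the other tight junction genes, were the lowest of the 10 per kb of transcript in G&T and Takara, and were not 2-fold or more below Takara in NEB. OCLN (ENSG00000197822; chromosome 5, 69492292 to 69558104, plus strand, 9 exons) had lowest, median and highest values of 0, 24.0 and 87.5 CPM in G&T, 2.10, 57.8 and 68.4 CPM in Takara, and 0, 36.3 and 136 CPM in NEB. Pooled OCLN was 26.5 CPM (23.4 to 30), 51.9 (47.8 to 56.2) and 50.3 (45.5 to 55.5), and no pair of protocols differed by more than the larger SD over cells. Its pseudogene OCLNP1 had 0 reads. TJP1 (ENSG00000104067; chromosome 15, 29699367 to 29968915, minus strand, 28 exons) had 6.08, 26.2 and 58.6 CPM in G&T, 0, 24.1 and 46.6 CPM in Takara, and 0, 40.5 and 319.9 CPM in NEB. In NEB it was absent from 3 cells and above every Takara and G&T cell in others, with 32.0% of its reads in cell C1. The pooled level was 25.6 CPM in G&T (22.5 to 29.0), 24.3 in Takara (21.6 to 27.3) and 81.9 in NEB (75.7 to 88.4), 3.37-fold above Takara (2.92 to 3.88), yet the gap between cell means of 62.3 CPM lay within the NEB SD of 106. The log2 ratio of NEB over Takara was 1.71 pooled, 0.72 between the medians of cells and 0.85 in the 4 NEB cells with at most 10% ERCC reads.

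The desmosomal pair divided. DSP (ENSG00000096696; chromosome 6, 7541338 to 7586714, plus strand, 24 exons) had reads in all 33 cells, with lowest, median and highest values of 108, 302 and 452 CPM in G&T, 128, 179.6 and 335 CPM in Takara, and 106, 345 and 965 CPM in NEB. The ranges overlapped, and pooled values of 287 CPM (277 to 298), 201 (193 to 209) and 398 (384 to 412) differed between protocols by less than the larger SD over cells. JUP (ENSG00000173801; chromosome 17, 41754604 to 41786931, minus strand, 14 exons) had 41.8, 218 and 532 CPM in the lowest, median and highest G&T cell, 404, 568 and 1148 CPM in Takara, and 0, 0 and 11.4 CPM in NEB. No NEB cell reached the lowest cell of the other protocols. Pooled JUP was 234 CPM in G&T (225 to 244), 706 in Takara (691 to 721) and 2.01 in NEB (1.15 to 3.26), where 16 reads in 4 cells were counted against 8273 in Takara. NEB was 352-fold below Takara (217 to 616) and 117-fold below G&T (71.7 to 205), and 0.0739% of all genes tested had a lower log2 ratio of NEB over Takara than JUP at -7.88. Without NEB cell D1, which held 68.8% of the NEB reads, that ratio was -8.69. CTNNB1, its relative, had 2110 reads in the NEB cells.

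**Figure D1:**
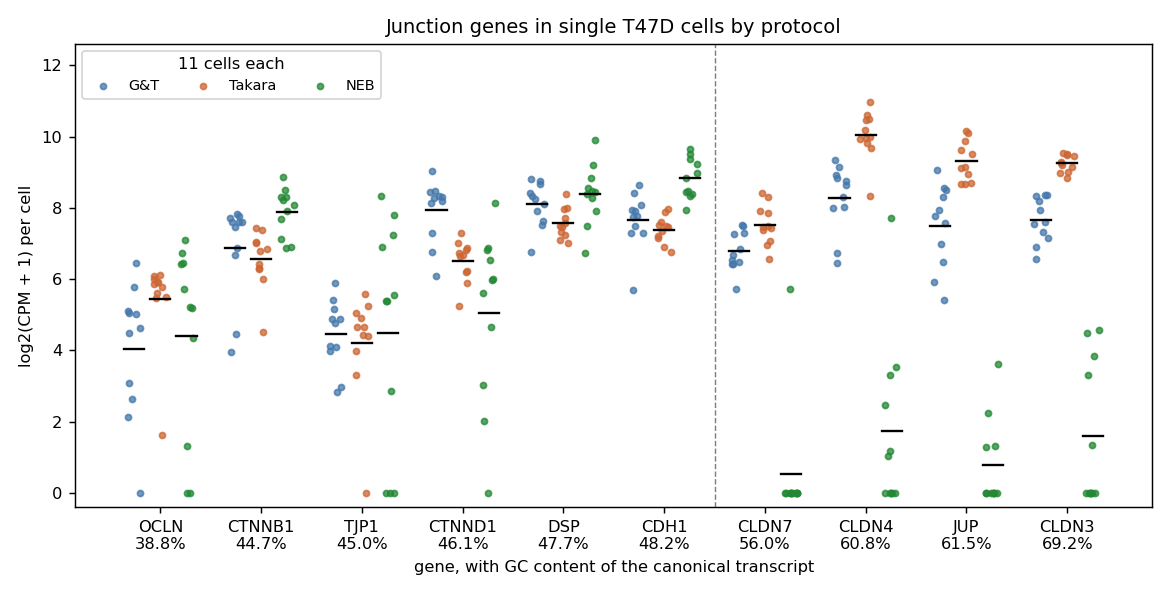
Level of each gene in each cell as log2(CPM + 1), with genes ordered by GC content of the canonical transcript from left to right, points for the 11 cells of each protocol and a black line for their mean. Right of the dashed line, where GC is 56.0% or more, 16 of the 44 NEB points lie above 0 and all G&T and Takara points do, with the highest NEB point that of cell G2 on CLDN4 at 208 CPM.

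**Figure D2:**
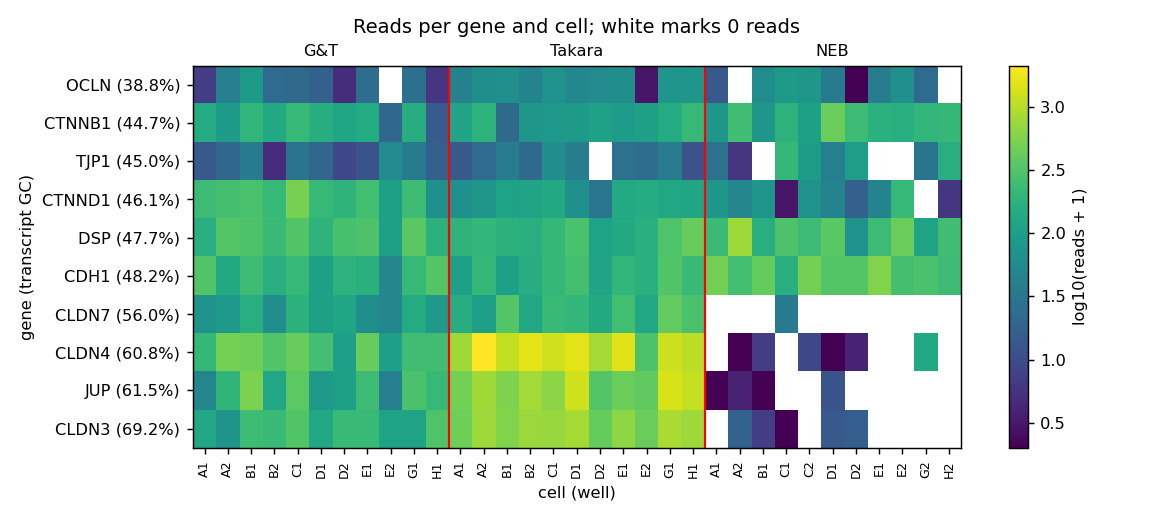
Reads on each gene (rows, ordered by GC content) in each of the 33 cells (columns, by well), as log10(reads + 1), with white for 0 reads and red lines between protocols. NEB cells held reads in 16 of the 44 fields of the lower 4 genes, and in 60 of the 66 fields of the upper 6.

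Summed over the 4 GC-rich genes, NEB cells held 251 reads in all, with 0, 13 and 130 in the lowest, median and highest cell, and 3 cells held none. The corresponding G&T cells held 305, 789 and 1394 reads, and the Takara cells 1257, 2894 and 3940. The GC-rich genes therefore took 2.28% of the junction gene reads with NEB, 48.4% with G&T and 80.3% with Takara. The other 6 genes summed to 1351 CPM with NEB, 977 with G&T and 655 with Takara, in an order opposite to that of the GC-rich genes, at 31.5, 917 and 2677 CPM. Without NEB cell G2, the GC-rich genes had 121 NEB reads, at 16.5 CPM and 1.18% of the junction gene reads. All 10 together had 1382 CPM in NEB (1356 to 1408), 1894 in G&T (1867 to 1922) and 3333 in Takara (3299.7 to 3366), and cells averaged 1376 ± 167, 1937 ± 631 and 3288 ± 717 CPM. Without G&T cells E2 and H1 and Takara cell E2, the sums were 2097 CPM in G&T and 3454 in Takara. In the 4 NEB cells with at most 10% ERCC reads, the GC-rich genes had 64 reads in 8 of 16 gene and cell combinations, at 20.2 CPM.

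Counts of junction genes past 2-fold were set beside those of all genes with 1 CPM or more in at least 1 protocol of the pair. NEB was at least 2-fold above Takara for CDH1, CTNNB1 and TJP1, 3 of 10, where 24.3% of all genes were, and at least 2-fold below for CLDN3, CLDN4, CLDN7 and JUP, 4 of 10, where 43.7% were. A level at least 2-fold lower in NEB was thus common among all genes. Log2 ratios below those of CLDN3, CLDN4, CLDN7 and JUP were found in 0.643%, 1.29%, 2.47% and 0.0739% of genes tested. For the other members this share ran from 52.8% (CTNND1) to 87.2% (TJP1). Complete separation was less common than a 2-fold lower level, over genes of all levels from 1 CPM. Every NEB cell lay below every Takara cell for those 4 genes and for 8.41% of all genes. Every NEB cell lay above every Takara cell for 0 of the 10 and 1.61% of all genes. A gene without reads in some Takara cell cannot lie wholly above NEB, and the 4 genes had reads in every Takara cell. Of the 530 genes at or above the GC boundary with at least 100 CPM in Takara, 92.1% were at least 2-fold below in NEB. Complete separation at a like level and GC was not tested, here or in the other comparisons. Against G&T, NEB was at least 2-fold above for 2 of the 10 (CDH1 and TJP1, 19.5% of all genes) and at least 2-fold below for 5 (CTNND1, CLDN3, CLDN4, CLDN7 and JUP, 48.7% of all genes). Every NEB cell lay below every G&T cell for CLDN3, CLDN7 and JUP, where 3.31% of all genes did, and above for 0 of the 10, where 1.03% did. For CLDN7 this was close to a tie, with 52.0 CPM in NEB cell C1 and 52.3 CPM in G&T cell E2. G&T was at least 2-fold above Takara for CTNND1 (25.7% of all genes) and at least 2-fold below for CLDN3, CLDN4 and JUP (17.0% of all genes). Every G&T cell lay below every Takara cell for CLDN3, 1 of 10 against 1.26% of all genes, and above for 0 of the 10, against 0.669%. The median log2 ratio of the 10 genes and of all genes was -0.212 and -0.563 for NEB over Takara, -0.683 and -0.918 for NEB over G&T, and -0.350 and 0.159 when G&T was set over Takara. The 3 comparisons share their libraries and are not independent of each other.

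Over all genes, too, the ratio of NEB over Takara differed with base composition, as a description. The median log2 ratio of NEB over Takara was lower with each step in transcript GC up to 65%, from 1.01 over 2371 genes up to 40% to -2.57 over 1359 genes between 60% and 65%, and was -2.55 over 422 genes above 65%. Of genes with at least 55% GC, 79.8% were 2-fold or more below Takara, and of genes under 55%, 30.2%. Spearman's rho between GC and log2 ratio was -0.58 across 13376 genes, where genes of a library share its preparation and are not replicates. Length had a rho of 0.122 with the same ratio, and the median ran from -1.19 for transcripts of 1 to 2 kb to 0.458 above 6 kb, with 0.0441 up to 1 kb. For the 10 genes rho was -0.733 with GC and 0.685 with length, and for 45 other junction genes -0.659 and 0.416. The 4 GC-rich junction genes lay below the median of their GC class, which may be compared at a like level. Among the 530 genes with at least 55% GC and at least 100 CPM in Takara, the median log2 ratio was -3.56, and 1.89% of them lay below JUP, 10.9% below CLDN3, 15.8% below CLDN4 and 20.9% below CLDN7. The same 530 genes had, with G&T over Takara, a median of -1.07. They were chosen for a high Takara level, which may lower both medians, and the extent was not tested. CDH1, CTNNB1 and DSP lay above 91.0%, 89.6% and 84.0% of the 1541 genes under 55% GC at that level, whose median was -0.417.

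**Figure D3:**
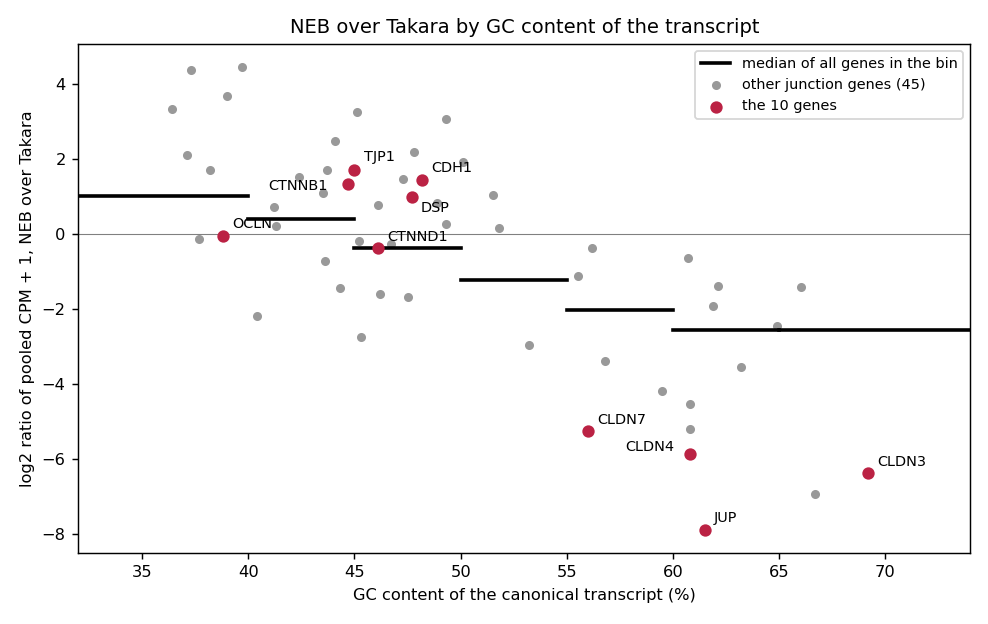
Log2 ratio of pooled CPM + 1 of NEB over Takara against transcript GC for the 10 junction genes (red, named), 45 other junction genes with at least 1 CPM in either protocol (grey) and the median of all genes per GC bin (black bars). The bars step down from 1.01 to about -2.6, and CLDN7, CLDN4, CLDN3 and JUP lie below them.

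Between G&T and Takara, which both gave reads on the GC-rich genes in every cell, the 3 lowest log2 ratios were those of CLDN4 (-1.73), JUP (-1.59) and CLDN3 (-1.49), while OCLN had -0.94 and CLDN7 -0.77. The highest were CTNND1 (1.46), DSP (0.52) and CTNNB1 (0.47). Over all genes the median of this ratio was -0.413 for transcripts of 1 to 2 kb and 0.860 above 6 kb, with 0.659 for those up to 1 kb. By GC it ran from 0.289 up to 40% to -0.142 between 55% and 60%, and was -0.119 between 60% and 65% and 0.0243 above 65%. Spearman's rho across 14487 genes was 0.166 with length and -0.113 with GC. For the 10 genes rho was 0.673 with length and -0.564 with GC, and for 45 other junction genes 0.760 and -0.283.

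**Figure D4:**
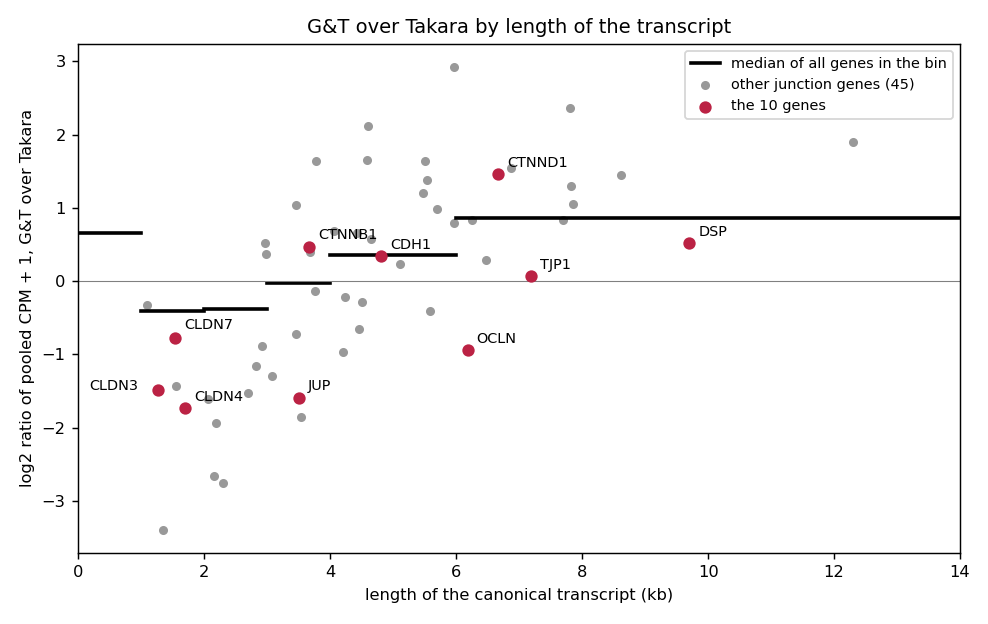
Log2 ratio of pooled CPM + 1 of G&T over Takara against length of the canonical transcript in kb for the 10 junction genes (red, named), 45 other junction genes (grey) and the median of all genes per length bin (black bars). Ratios of the claudins and JUP lie between -1.73 and -0.77, and those of the 4 genes longer than 6 kb between -0.94 and 1.46.

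Levels were compared between genes per kb of the canonical transcript. In Takara the order of the levels was CLDN4 (679 CPM per kb), CLDN3 (487), JUP (201), CLDN7 (129.6), CDH1 (36.5), CTNNB1 (28.6), DSP (20.7), CTNND1 (14.7), OCLN (8.40) and TJP1 (3.38). Neighbours differed by more than the larger SD over cells between CLDN3 and JUP, between CLDN7 and CDH1, between CTNND1 and OCLN and between OCLN and TJP1, and not at the other steps. In G&T the same 4 genes were at the top, CLDN4 (204), CLDN3 (172), CLDN7 (75.8) and JUP (66.8), followed by CDH1 (46.2), CTNND1 (40.6), CTNNB1 (39.6), DSP (29.6), OCLN (4.29) and TJP1 (3.56), and gaps exceeded the SD only below CLDN3 and below DSP. In NEB the order was CDH1 (99.9), CTNNB1 (72.3), DSP (41.0), TJP1 (11.4), CTNND1 (11.3), CLDN4 (11), OCLN (8.14), CLDN3 (5.12), CLDN7 (2.77) and JUP (0.572), with gaps over the SD below CTNNB1 and below DSP. The place of CLDN4 in NEB rested on cell G2, without which it had 1.53 CPM per kb and place 9, and CLDN7 had 0 without cell C1. The claudins and JUP thus led in Takara and G&T, and E-cadherin led in NEB. When lengths were taken as the union of all annotated exons, CLDN3 came before CLDN4 in Takara and G&T, and CDH1 stayed first in NEB.

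**Figure D5:**
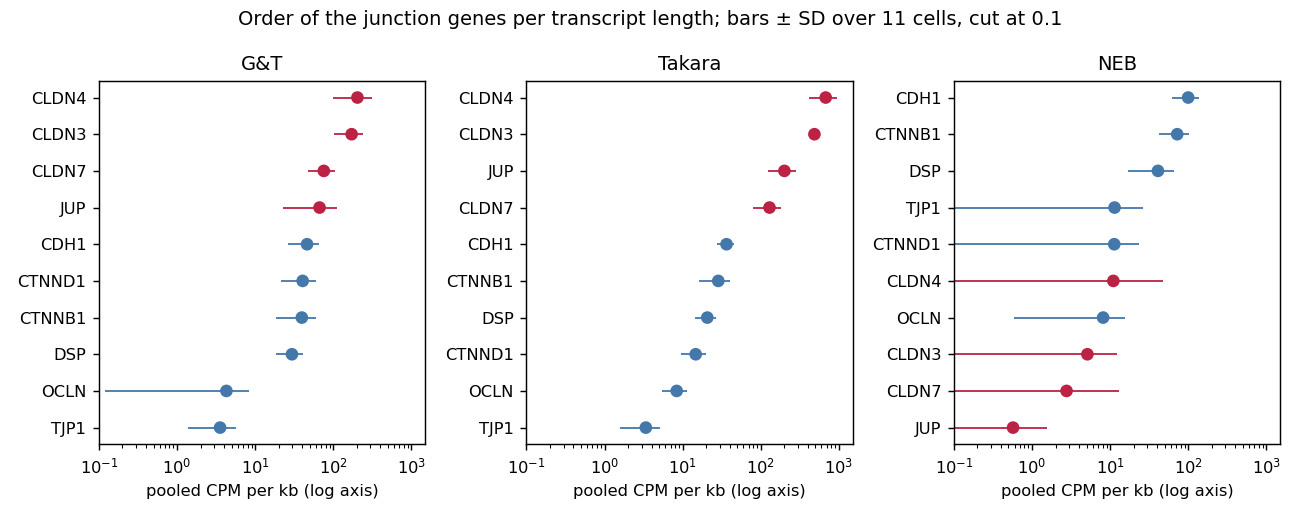
Pooled CPM per kb of the canonical transcript for the 10 genes in each protocol, on a log axis, ordered from the highest at the top, with red for genes of at least 55% GC, blue for the others and bars for ± SD over 11 cells, cut at 0.1. The red genes hold the upper 4 places in G&T and Takara, at 66.8 to 679 CPM per kb, and places 6 and 8 to 10 in NEB, where CLDN4 takes place 9 without cell G2.

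Other components of the junctions were taken from lists of related genes, to be read beside the 24.3% of all genes that were at least 2-fold above and the 43.7% that were below in NEB over Takara. Of 16 further adherens junction genes, 11 were tested for NEB over Takara, with 3 at least 2-fold above and 6 below and a median log2 ratio of -1.11. The leading genes were EPCAM, CTNNA1 and LIMA1. EPCAM, an adhesion molecule and a marker of the sort (44.3% GC), had 186 CPM with G&T, 501 with Takara and 185 with NEB. CTNNA1, the α-catenin that links the complex to actin (47.5% GC), had 211, 233 and 72.0 CPM. The actin-binding LIMA1 (42.4% GC) had 121, 91.7 and 262 CPM. Of 30 further tight junction genes, 22 were tested, with 12 above and 3 below and a median of 1.07. CLDN1 (41.3% GC) had 1717, 834 and 967 CPM. The polarity gene PARD6B (39.7% GC) had 375, 119 and 2613 CPM, and the adhesion receptor CXADR (36.4% GC) 78.1, 104 and 1058 CPM. Of 13 further desmosome genes, 7 were tested, with 1 above and 4 below and a median of -2.18. PERP (40.4% GC) had 78.7, 154 and 33.2 CPM, and desmoglein DSG2 (41.2% GC) 104, 51.6 and 84.9 CPM. Plakophilin PKP3 (66.7% GC) had 52.9, 119.8 and 0 CPM, where a count of 0 in NEB allows up to 0.376 CPM. Of 8 gap junction genes, 5 were tested, with 0 above and 4 below and a median of -1.93. GJC1 (43.6% GC) had 24.4, 13.2 and 7.65 CPM. GJB5 (56.8% GC) had 0, 9.47 and 0 CPM and GJB2 (45.3% GC) 0, 5.72 and 0 CPM, with reads in Takara alone. Among the named genes under 55% GC, EPCAM, CTNNA1, PERP and GJB2 were 2-fold or more below Takara in NEB. Their log2 ratios were -1.43, -1.68, -2.18 and -2.75. Across the 4 lists, 11 of 13 genes with at least 55% GC (84.6%) were 2-fold or more below Takara in NEB, and 6 of 32 under 55% (18.8%), against 79.8% and 30.2% of all genes.

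Over all genes, NEB was 2-fold or more above G&T for 19.5% and below for 48.7%, and G&T above Takara for 25.7% and below for 17.0%. Against G&T, NEB was 2-fold or more above for 1 and below for 7 of 12 adherens junction genes tested, and for 9 and 6 of 23 tight junction genes, 2 and 4 of 7 desmosome genes, and 0 and 1 of 1 gap junction gene. G&T was 2-fold or more above Takara for 4 and below for 2 of 12 adherens junction genes, for 9 and 3 of 21 tight junction genes, for 1 and 1 of 7 desmosome genes, and for 0 and 4 of 5 gap junction genes. Of 12 regulators of epithelial identity, 11 were tested for NEB over Takara, with 2 above and 6 below and a median of -2.49. The membrane protease ST14 (62.1% GC) had 225 CPM with G&T, 579.6 with Takara and 11.9 with NEB, its inhibitor SPINT1 (60.2% GC) 178, 471 and 38.6 CPM, and the transcription factor GRHL2 (49.8% GC) 114, 42.8 and 233 CPM. Repressors of E-cadherin were low. The 8 genes of that list summed to 37.1 CPM with G&T, 18.3 with Takara and 7.02 with NEB, most of it on TCF3 (29.1, 13 and 5.02) and TCF4 (7.05, 3.58 and 2.01), and SNAI1 had 0.316, 1.71 and 0 CPM. SNAI2, ZEB1, TWIST1 and TWIST2 had no read in any protocol, which allows up to 0.316, 0.256 and 0.376 CPM. The 6 genes listed as other cadherins summed to 2.63, 6.06 and 17.6 CPM, led by CDH13 (2.21, 5.63 and 17.6). N-cadherin (CDH2) had 4 reads in 1 G&T cell and CDH6 3 reads in 1 Takara cell. P-cadherin (CDH3), which was counted among the adherens junction genes, had 34.3 CPM with G&T, 54.5 with Takara and 6.15 with NEB. It thus lay above CDH13 in G&T and Takara.

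Covariation of the genes between cells was described within each protocol, and a difference between protocols was not tested. Among the 45 pairs of the 10 genes, Spearman's rho of CPM over 11 cells had a median of 0.345 in G&T, with 34 pairs above 0. In Takara the median was 0.118, with 27 pairs above 0. The SD over pairs was 0.317 in G&T and 0.339 in Takara, larger than the gap between these medians. All pairs of 7137 genes in G&T and 7907 in Takara with reads in at least 10 cells had medians of 0.0636 and 0.0. The highest pair in G&T was CLDN4 with OCLN (0.891) and the lowest CLDN3 with TJP1 (-0.364). In Takara the highest was CLDN3 with JUP (0.855) and the lowest CTNNB1 with TJP1 (-0.745). Without cells E2 and H1 the G&T median was 0.217, with 34 pairs above 0, against 0.0167 for all gene pairs. Without cell E2 the Takara median was 0.0909, against 0.00606. In NEB only CDH1, CTNNB1, CTNND1 and DSP had reads in at least 10 cells, and their 6 pairs ran from -0.682 to 0.518. The values of a cell share its library and its depth, and these coefficients carry no test. Among 2848 genes with reads in at least 30 of the 33 cells, those whose level across cells was most like that of CDH1 were EEF2 (mean rho over protocols 0.594), RBMX2 (0.558) and CACUL1 (0.558). CTNND1 (0.0939, place 787), OCLN (0.041, place 1097), DSP (-0.0394, place 1526) and CTNNB1 (-0.121, place 1956) were far from the top of that order.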

How the data were processed

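Per the labels and the study's methods, single T47D cells were prepared with 3 protocols and sequenced on a MiSeq, 1 run per protocol. The authors trimmed the reads with Trim Galore in 2 rounds, aligned them to GRCh38 with STAR, took its gene counts and deposited 1 table of raw read counts per protocol, neither normalized nor filtered and without molecular identifiers. The annotation release and the strand column of the counts are not given in the sources used here, so reads of overlapping antisense genes may not be separated. Reads in the 4 categories STAR leaves unassigned, 27.4% to 40.6% of a G&T cell, 17.7% to 26.1% of a Takara cell and 21.8% to 29.0% of an NEB cell, were left out. SMART-Seq3 cells were not analysed here.

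Cells were kept with at least 1000 genes, at least 600000 reads on genes and the 92 ERCC spike-ins, no more than 30% mitochondrial and 25% ERCC reads, which left 33 of 40. CPM are per 1000000 reads on genes, and pooled values sum the reads of the cells of a protocol. Ratios are log2 of pooled CPM + 1, which understates the change of low genes, for genes with at least 1 CPM in either protocol. Folds are ratios of pooled CPM without that addition, with exact conditional 95% intervals. Lengths, GC and sequences came from the Ensembl canonical transcripts of GENCODE release 44, which matched 56104 of 60279 listed identifiers, and may differ from the annotation the authors used.

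Cells of a protocol are not replicates, so no test was run. The members and lists were chosen with earlier results of these data known. Named from the other lists are the 3 genes with the highest summed CPM, and for CDH1 the 3 with the highest mean Spearman correlation. CDH3 is named in addition, to be read beside the other cadherins. Comparison with genes of at least 100 CPM and the boundary of 55% GC were chosen after the values were seen. Rarefaction and ratios were tested on simulated data. The simulated ratios held counting error only, without variation between cells and without genes of low level. They therefore do not cover low NEB values whose reads lie mostly in single cells. Alternatives covered detection at 5 reads, depth, denominators, pooling, pseudocounts, filters, TMM scaling (edgeR 4.0.16), cells kept, gene length and the coefficient. Steps used Python 3.11.15, numpy 2.4.6, pandas 2.3.3, scipy 1.17.1, matplotlib 3.10.9 and R 4.3.3.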

Additional observations from a re-analysis of the deposited data

Results flagged for a closer look

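The 7 cells that failed the quality thresholds lie outside the comparisons, and 5 of them held more reads on the junction genes than the 3 reads taken as the limit of a count of 0. G&T cell C2 held 500 reads on the 10 genes and G&T cell F1 1517, and all 10 genes were detected in both. NEB cell B2 held 779 reads on 8 of the genes and NEB cell F2 491 on 7. Takara cell F1 held 57 reads on 2 genes, in a library with 96.7% ERCC reads. Takara cell C2 and NEB cell F1 held 1 read each, at 91.3% and 99.7% ERCC reads.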

How the results depend on the processing

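No paired analysis was possible because the cells of the protocols share no numbering of replicates, only wells of separate plates. Of 212 recomputed summary values, 206 stayed within 1 SD (over cells, or over gene pairs for covariation) or within 1.5 times the count. Many of the 212 leave out a single cell, which moves a pooled value little beside the SD over cells. The count of 206 therefore says little about stability, and the ranges below say more. The exceptions to these limits were as follows. With all deposited cells, Takara cells held 8.62 of the 10 genes on average, since the added cells had 2 and 1. The number of genes with NEB at least 2-fold above G&T was 1, in place of 2, with the median of the cells' CPM and also in the NEB cells with at most 10% ERCC reads. With the union of exons as length, 3 of 10 genes kept their place in the order with G&T, 6 with Takara and 5 with NEB. With single cells left out in turn, the summed level ran from 1809 to 2032 CPM in G&T, 3240.5 to 3454 in Takara and 1347 to 1402 in NEB, and the median log2 ratio of the 10 genes from -0.511 to -0.0862 for NEB over Takara, -0.963 to -0.592 for NEB over G&T and -0.428 to -0.268 for G&T over Takara. No log2 ratio past 2-fold changed sign in any alternative run. CLDN3, CLDN4, CLDN7 and JUP stayed at least 2-fold below Takara in NEB in all 29 alternatives, from -9.26 to -5.25, -8.96 to -5.34, -7.65 to -3.88 and -9.15 to -5.90 over those that leave out no single cell. TJP1 in NEB came under 2-fold over Takara in 2 of 29 and over G&T in 2 of 29 (0.61 between medians and 0.78 in NEB cells low in ERCC reads), CDH1 over G&T in 3 of 29 (0.75 in those NEB cells), and DSP over Takara, at 0.98, passed it in 11 of 29. OCLN passed 2-fold in 6 of 29 for NEB over G&T (1.34 without G&T cell B1) and 5 of 28 for G&T over Takara (-1.38 without that cell), and CTNNB1 for NEB over G&T in 1 of 29 (1.24). Detection at 5 reads or more gave 9.73, 9.82 and 6.09 genes per cell in G&T, Takara and NEB, and thinning to 672328 reads 9.91, 9.90 and 6.81. With GC taken from the coding sequence, the median log2 ratio of NEB over Takara for genes of at least 55% GC was -2.09 in place of -2.25. The alternatives by ERCC share, without the G&T and Takara cells that stood apart, by coding GC, and without single cells for the order per kb and the GC-rich sum were chosen after seeing the data. Depth limits statements on absence to the levels that 3 reads allow, 0.316 CPM with G&T, 0.256 with Takara and 0.376 with NEB, pooled over cells.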
